A study of Mus musculus with 8 samples.

Results

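The endoplasmic reticulum (ER) unfolded protein response was followed here in 31 genes chosen by name for their function, and all 31 were found by symbol among the 49585 gene identifiers of the table. They comprised 14 chaperones and folding enzymes, 7 genes of the degradation machinery, 6 genes of the ATF4 arm, and the 3 ER stress sensors together with the transcription factor Xbp1. RNA-seq had been made from the intestine of C57BL/6 mice, 4 that were Klebsiella recipients and 4 that were Lactobacillus recipients, 1 library per mouse. What else the recipients were given, for how long, at what age, and which stretch of intestine was taken are not stated in the sources used here, and both groups share strain, tissue and library preparation. No untreated recipient is among the samples, so each value is Klebsiella set against Lactobacillus.

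Proteins that enter the ER are folded there by chaperones and by enzymes that form disulfide bonds. When unfolded protein builds up, the sensors IRE1 (Ern1), ATF6 and PERK (Eif2ak3) are released from the chaperone BiP. IRE1 splices the Xbp1 transcript, ATF6 is cut to yield a transcription factor, and PERK slows translation while favouring that of ATF4. The first pair of branches is known for switching on chaperones and the degradation machinery, and ATF4 for genes of amino acid supply and stress. Gut secretory cells such as goblet, Paneth and plasma cells carry a large protein load and are known to depend on Xbp1.

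No ER stress gene passed the test for a difference between recipients, and the differences that were seen were small. In limma on log2(FPKM + 0.5), with p-values adjusted over the 16865 genes that averaged 0.5 FPKM or more (read fragments scaled to gene length and library size), 0 of the 31 had an adjusted p under 0.05, as for all tested genes (0%), and voom on recovered reads also called 0. The members' limma adjusted p-values lay between 0.774 and 0.994. All 31 were tested, and 26 of them had a log2 difference (Klebsiella minus Lactobacillus) above 0, where 46.4% of all tested genes did. It was 28 of them after either rescaling of the FPKM (constant total, median-of-ratios factors), with Edem1 and Ddit3 then above 0. These rescalings also moved the median over all tested genes, from -0.017 to 0.008 and 0.006. In the main fit the median log2 difference of the members was 0.151, beside -0.017 over all tested genes. At an unadjusted p under 0.05, 6 members were higher in Klebsiella recipients (Xbp1, Herpud1, Asns, Syvn1, Atf4 and Eif2ak3) and 0 were lower, against 2.55% of all tested genes higher and 3.52% lower.

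That count of 6 depended on single mice. It was 13 without Lactobacillus mouse 1, where 5.11% of all tested genes were higher at that p. It was 3 without Klebsiella mouse 2 (1.52% of all genes), 2 without Lactobacillus mouse 2 (2.19%) or mouse 4 (1.61%), and 1 without Klebsiella mouse 4 (2.56%) or Lactobacillus mouse 3 (1.22%). With any 1 library left out, the smallest limma adjusted p of a member was 0.357. The 4 values of each group did not overlap in 2 members, Xbp1 and Herpud1, both higher in Klebsiella recipients, where 1.19% of all tested genes were higher without overlap. For 0 members did the groups separate with Klebsiella lower, beside 1.80% of all tested genes.

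**Figure D1:**
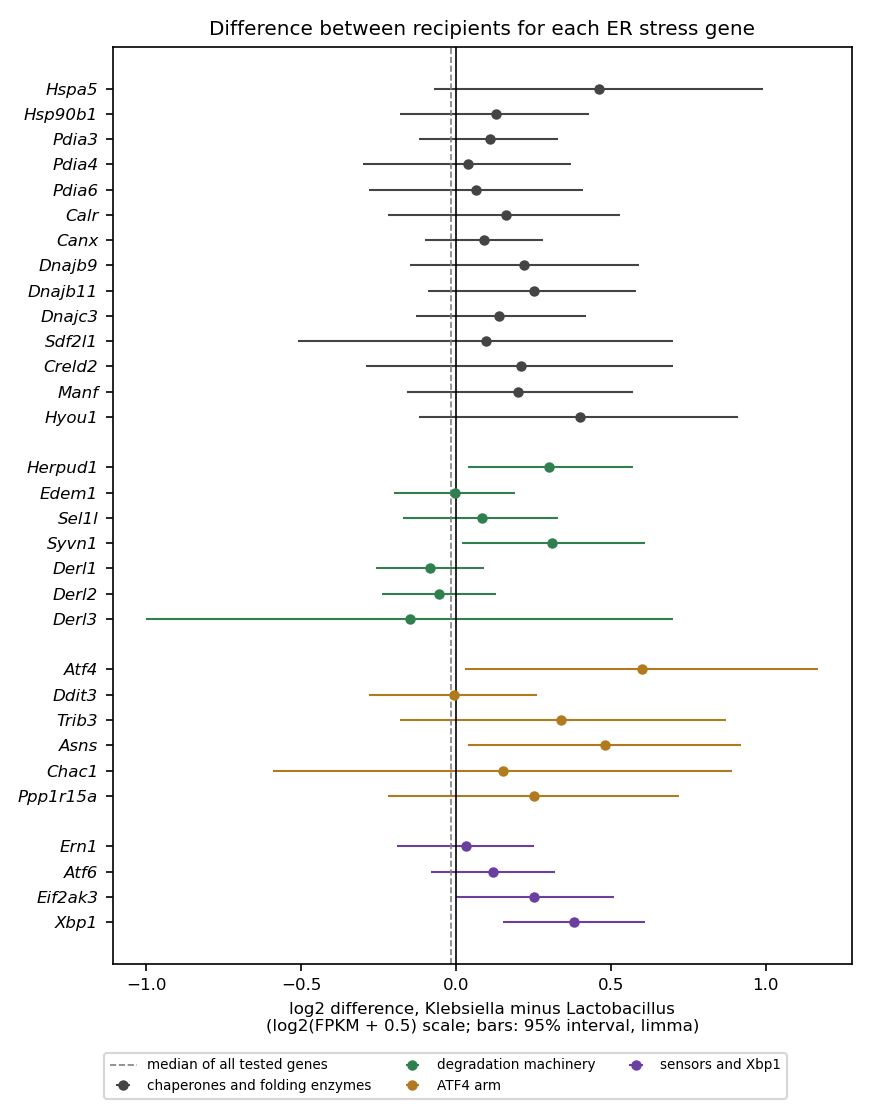
Log2 difference (Klebsiella minus Lactobacillus, log2(FPKM + 0.5) scale) of each of the 31 genes with its 95% interval from limma, coloured by role; the dashed line is the median of all tested genes. Points of the 14 chaperones all lie right of 0, with intervals that include 0, while the degradation genes lie on both sides and Atf4 lies farthest right at 0.60.

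The libraries held between 15375480 and 20953595 reads in genes, recovered from the FPKM values, and the lowest count of a member outside Trib3 and Chac1 was 67 reads. Epithelial keratin Krt8 was at 1990 to 2928 FPKM in Klebsiella and 1857 to 2491 FPKM in Lactobacillus recipients, so intestine as labelled was present throughout. The pancreatic protease gene Ctrb1 stood at 418 FPKM in Klebsiella mouse 2 and 112 FPKM in Lactobacillus mouse 3, with 0.131 to 2.99 FPKM in the other 6 libraries. Hoxb6, a gene that marks position along the gut, was at 40.2 FPKM in Klebsiella mouse 3 and 45.2 FPKM in Lactobacillus mouse 2, and at 1.16 to 3.87 FPKM elsewhere. Hoxd13, a marker of the hindmost gut, was at 46.3, 3.25, 2.20 and 8.03 FPKM in Klebsiella mice 1 to 4, against 43.9, 19.1, 27.3 and 39.2 FPKM in Lactobacillus mice 1 to 4. All 6 genes of the position list had a log2 difference below 0, and they summed to 156 to 232 FPKM in Klebsiella and 215 to 321 FPKM in Lactobacillus recipients, with Hoxb13 the most abundant at 81 to 144 and 119 to 237 FPKM in those groups. The groups overlapped in all 6, none passed the test (limma adjusted p of 0.774 to 0.997), and the differences of Hoxb6 and Hoxa13 were -0.06 each. The part of position in the results that follow was not tested. Base quality was lowest in Klebsiella mouse 4, with 90.65% of bases at Q30 or better, where the other libraries had 94.03% to 94.57%. In whole tissue, fewer cells of a type and less RNA per cell cannot be told apart.

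Chaperones and folding enzymes made up the bulk of the signal and differed little between recipients. Their 14 log2 differences all lay above 0, between 0.04 and 0.46 with a median of 0.151, and none separated the groups or reached an unadjusted p under 0.05. Pdia4, Pdia6 and Sdf2l1 lay below 0 without Lactobacillus mouse 4. Summed over the 14 genes, expression was 2647, 2730, 2653 and 3178 FPKM in Klebsiella mice 1 to 4, against 3222, 2427, 2255 and 2076 FPKM in Lactobacillus mice 1 to 4. Lactobacillus mouse 1 thus held the highest sum of all 8 libraries and lay above every Klebsiella mouse, while the other Lactobacillus mice lay below every Klebsiella mouse.

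Hspa5, which encodes BiP, the main ER chaperone of the Hsp70 family, was read at 469, 443, 441 and 664 FPKM in Klebsiella recipients, against 570, 341, 268 and 323 FPKM in Lactobacillus recipients. Klebsiella mouse 4 and Lactobacillus mouse 1 were the high libraries, and the groups overlapped through the Lactobacillus one. Hspa5 averaged 504 ± 107 FPKM in Klebsiella recipients and 376 ± 133 FPKM in Lactobacillus recipients (SD, n = 4 each). This corresponds to 0.46 ± 0.23 (SE) on the log2 scale, with a 95% interval of -0.07 to 0.99 and a limma adjusted p of 0.774. Its promoter is printed below because the ER stress response element, the letters that the unfolded protein response is best known to act through, stands close to the start site. The window (250 bases before to 50 after the start, chr2:34771840-34772139, plus strand, RefSeq on GRCm38.p6) carries 1 exact match to this element, in capitals, whose first base lies 65 bases before the start. Near matches were not searched for.
Hspa5: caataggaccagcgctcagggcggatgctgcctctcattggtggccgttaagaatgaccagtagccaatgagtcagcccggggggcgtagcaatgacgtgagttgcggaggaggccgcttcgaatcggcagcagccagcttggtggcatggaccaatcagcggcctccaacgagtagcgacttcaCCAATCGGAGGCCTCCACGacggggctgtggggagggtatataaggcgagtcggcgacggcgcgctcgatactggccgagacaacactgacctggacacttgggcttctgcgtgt

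The element searched, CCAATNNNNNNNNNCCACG on either strand, is rare, being found in 39 of 32851 RefSeq promoters of this length (0.119%). It was found in 9 of the 27 members that have a promoter there, namely Hspa5, Hsp90b1, Calr, Canx, Pdia6, Dnajc3, Creld2, Syvn1 and Derl3. The chaperone sites are shown so that the shared ends (capitals) and the free middle can be compared, each read in the direction of the element, and Hsp90b1 has 2.
Hspa5 site: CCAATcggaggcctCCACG
Hsp90b1 far site: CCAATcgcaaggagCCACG
Hsp90b1 near site: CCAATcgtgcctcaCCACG
Calr site: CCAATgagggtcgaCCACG
Canx site: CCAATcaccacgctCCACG
Pdia6 site: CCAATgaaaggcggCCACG
Dnajc3 site: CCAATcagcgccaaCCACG
Creld2 site: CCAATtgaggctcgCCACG
The end of each site farther from the start lies 65 bases before the start in Hspa5, 212 and 107 in Hsp90b1, 162 in Calr, 145 in Canx, 98 in Pdia6, 105 in Dnajc3 and 126 in Creld2. The 9 members with this long element had a median log2 difference of 0.144, and 8 of them lay above 0. The 18 that have a promoter without it had a median of 0.185, and 15 lay above 0. Among those 18 are Dnajb11 (0.25) and Herpud1 (0.30), which carry a shorter form of the element, described below. Hyou1, Atf6, Derl1 and Manf have no entry in the promoter table. A match is only a match of letters, and its use in these mice was not measured.

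Hyou1, a large Hsp70-related protein that helps BiP release its nucleotide, came next in size among the chaperones. It was at 63.5, 58.3, 57.8 and 79.3 FPKM in Klebsiella recipients, against 80.4, 45.6, 40.5 and 37.8 FPKM in Lactobacillus recipients. The last 3 Lactobacillus values lie below all Klebsiella values and the first above all of them. The log2 difference was 0.40 ± 0.23 (SE, limma adjusted p = 0.774), and it was 0.64 without Lactobacillus mouse 1.

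The lectin chaperones that hold newly made glycoproteins were abundant and differed little. Calr (calreticulin), with the highest mean of all 31 genes, was at 557, 622, 553 and 645 FPKM in Klebsiella recipients and 718, 517, 534 and 403 FPKM in Lactobacillus recipients. Canx (calnexin), its membrane-bound relative, was at 163, 174, 197 and 180 FPKM in Klebsiella recipients and 176, 172, 154 and 168 FPKM in Lactobacillus recipients. Both genes overlapped between groups, with log2 differences of 0.16 ± 0.16 and 0.09 ± 0.09 (SE). Counting of Calr may share reads with a processed pseudogene, Calr-ps.

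Among the protein disulfide isomerases, Pdia3, the partner of the lectin chaperones, ranged over 527 to 562 FPKM in Klebsiella recipients and 434 to 570 FPKM in Lactobacillus recipients. Pdia4 was at 82.5, 82.4, 90.6 and 114 FPKM in Klebsiella recipients, against 115, 83.9, 80.9 and 80.4 FPKM in Lactobacillus recipients. Each group thus held 1 high mouse, and the log2 difference of 0.04 was the lowest among the chaperones. Pdia6, which acts on BiP clients and on the sensors, was at 259, 248, 244 and 277 FPKM in Klebsiella recipients and 329, 243, 239 and 191 FPKM in Lactobacillus recipients. Hsp90b1 (GRP94), the Hsp90 of the ER, was at 167, 202, 190 and 243 FPKM in Klebsiella recipients and 215, 187, 160 and 170 FPKM in Lactobacillus recipients, a log2 difference of 0.13 ± 0.13 (SE).

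The J-domain proteins, which hand clients to BiP and spur its ATPase, were similar. Dnajb9 (ERdj4) ranged over 23.8 to 38.9 FPKM in Klebsiella and 21.9 to 32.1 FPKM in Lactobacillus recipients. For Dnajb11 (ERdj3) the range was 97.2 to 113 FPKM in Klebsiella and 69.8 to 116 FPKM in Lactobacillus recipients. Dnajc3 (p58IPK) lay at 30.2 to 36.9 FPKM in Klebsiella and 25.7 to 35.6 FPKM in Lactobacillus recipients. All 3 overlapped between groups. Their log2 differences were 0.22, 0.25 and 0.14, with unadjusted p-values from limma of 0.215, 0.127 and 0.258. Dnajb11 carries the shorter element, ATTGG and CCACG with any 1 base between them, a form of the same response element with the first block turned, which 12 of all promoters hold (0.0365%). In Dnajb11 it begins 7 bases after the start.

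Small secreted and luminal stress proteins were uneven among the Lactobacillus mice. Sdf2l1, which works with Dnajb11, was at 52.6, 47.7, 54.0 and 60.2 FPKM in Klebsiella recipients, against 90.9, 50.1, 40.8 and 33.3 FPKM in Lactobacillus recipients. The Klebsiella values lie inside the range of the Lactobacillus ones, so the means were 53.6 ± 5.15 and 53.8 ± 25.7 FPKM (SD, n = 4 each). Creld2, an ER-resident protein that can be secreted, was at 39.2, 36.6, 37.7 and 51.8 FPKM in Klebsiella recipients and 55.9, 35.2, 27.9 and 28.6 FPKM in Lactobacillus recipients. Manf, which binds BiP and is also released from cells, was at 98.9, 97.5, 89.9 and 113 FPKM in Klebsiella recipients and 117, 88.0, 67.3 and 79.9 FPKM in Lactobacillus recipients. In Creld2 and Manf, Lactobacillus mouse 1 again had the highest value and Lactobacillus mouse 3 the lowest.

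**Figure D2:**
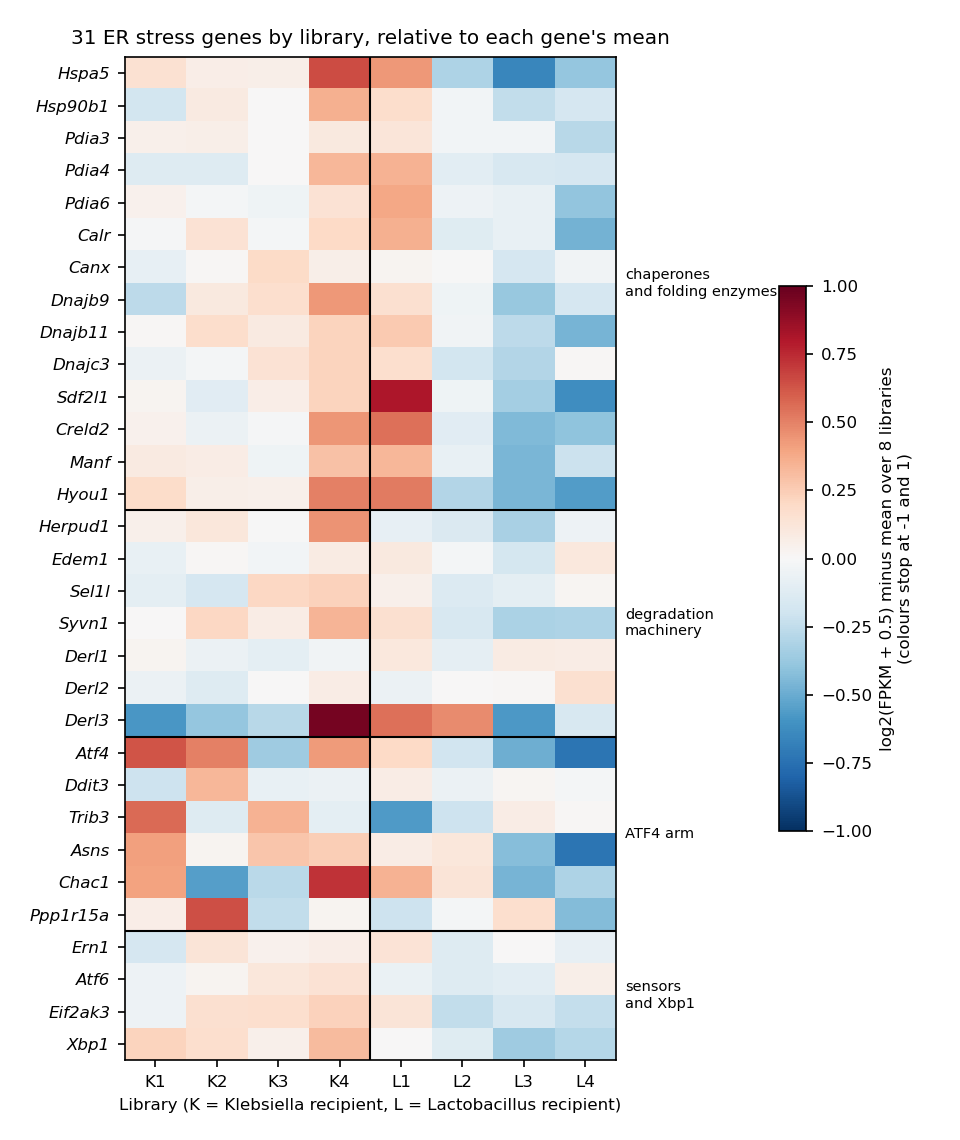
Log2(FPKM + 0.5) of each of the 31 genes in each library, minus that gene's mean over the 8 libraries (columns are K1 to K4 for Klebsiella and L1 to L4 for Lactobacillus mice, rows are grouped by role, and colours stop at -1 and 1). The chaperone block is red in K4 and L1 and blue in L3 and L4, whereas most rows of the degradation block are pale.

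The plot of all genes by library shows that the chaperones varied together from mouse to mouse. Averaged over the 14 genes after centring each on its own mean, Klebsiella mice 1 to 4 stood at -0.01, 0.03, 0.05 and 0.30 and Lactobacillus mice 1 to 4 at 0.33, -0.10, -0.29 and -0.31 on the log2 scale. Lactobacillus mouse 1 was the highest library for 9 of the 14 genes, Klebsiella mouse 4 for 4 and Klebsiella mouse 3 for 1. Lactobacillus mouse 3 was the lowest for 7 and Lactobacillus mouse 4 for the other 7. The median log2 difference of the chaperones was accordingly 0.31 without Lactobacillus mouse 1, but 0.09 without Klebsiella mouse 4 or Lactobacillus mouse 3, and 0.10 without Lactobacillus mouse 4. Without Lactobacillus mouse 1, 12 members were higher in Klebsiella recipients with no overlap, of which 8 are chaperones, while 4.57% of all tested genes were. This is a description of 1 library left out and still left 0 members past the adjusted threshold. The share of G and C bases was highest in Lactobacillus mouse 1 (51.2%) and lowest in Lactobacillus mouse 4 (49.37%), the libraries with the highest and the lowest chaperone sum, with 50.04% to 50.39% in the other 6, and its part in the chaperone levels was not tested.

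The degradation machinery, which draws misfolded proteins back to the cytosol for the proteasome, did not move as a block. Its 7 genes had 3 log2 differences above 0 and 4 below, with a median of -0.005. Under the 2 rescalings this median was 0.022 and 0.020, where that of all tested genes was 0.008 and 0.006. Herpud1, a membrane scaffold of the retrotranslocation complex, was at 126, 131, 121 and 166 FPKM in Klebsiella recipients, against 114, 110, 96.5 and 117 FPKM in Lactobacillus recipients. All Klebsiella values lie above all Lactobacillus values, with a gap of a few FPKM between the nearest mice. The log2 difference was 0.30 ± 0.12 (SE), with a 95% interval of 0.04 to 0.57, an unadjusted p of 0.0281 and a limma adjusted p of 0.774. The Herpud1 promoter (chr8:94386179-94386478, plus strand, RefSeq on GRCm38.p6) is shown because it was the only member promoter with a match to both an ER stress element and the ATF4-type element TTGCATCA. In capitals, the TTGCATCA begins 112 bases and the shorter ER stress element 52 bases before the start.
Herpud1: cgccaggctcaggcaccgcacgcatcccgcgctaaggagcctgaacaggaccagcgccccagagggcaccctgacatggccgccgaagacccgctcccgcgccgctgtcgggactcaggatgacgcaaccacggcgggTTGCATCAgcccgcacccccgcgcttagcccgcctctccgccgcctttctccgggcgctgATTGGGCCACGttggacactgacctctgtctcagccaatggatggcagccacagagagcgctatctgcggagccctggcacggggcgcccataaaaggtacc

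Syvn1 (HRD1), the ubiquitin ligase at the centre of the complex, was at 22.5, 26.0, 23.7 and 28.6 FPKM in Klebsiella recipients, against 25.2, 20, 17.9 and 18.1 FPKM in Lactobacillus recipients. Lactobacillus mouse 1 lay among the Klebsiella mice, and the other Lactobacillus mice lay below them. The log2 difference was 0.31 ± 0.13 (SE, unadjusted p = 0.0394, limma adjusted p = 0.774). Sel1l, the adaptor that holds Syvn1 stable, was at 42.4, 40.4, 52.4 and 53.3 FPKM in Klebsiella recipients and 47.1, 41.2, 42.4 and 45.9 FPKM in Lactobacillus recipients, with a log2 difference of 0.08 ± 0.11 (SE). The gap between these complex partners was not tested. The Syvn1 promoter (chr19:6046326-6046625, plus strand, RefSeq on GRCm38.p6) holds the long element, in capitals, from 44 bases before the start, the match nearest to a start site among the 9 promoters.
Syvn1: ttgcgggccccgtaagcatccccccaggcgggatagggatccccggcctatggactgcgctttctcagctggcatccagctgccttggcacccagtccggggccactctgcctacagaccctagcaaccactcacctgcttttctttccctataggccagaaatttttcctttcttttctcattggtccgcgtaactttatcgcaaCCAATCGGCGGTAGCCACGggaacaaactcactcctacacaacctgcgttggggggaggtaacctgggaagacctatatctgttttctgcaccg

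Edem1, a lectin that picks out trimmed glycoproteins for degradation, and Derl1 and Derl2, derlins, which are membrane proteins of the exit channel, showed little difference. Edem1 ranged over 67.4 to 75.4 FPKM in Klebsiella recipients and 63.0 to 76.8 FPKM in Lactobacillus recipients, with a log2 difference of -0.005 and a 95% interval of -0.20 to 0.19. Derl1 was at 41.4, 39.0, 38.1 and 39.7 FPKM in Klebsiella recipients and 44.0, 38.2, 43.0 and 42.9 FPKM in Lactobacillus recipients. Its interval of -0.26 to 0.09 is among the narrowest of the members, and the highest library exceeded the lowest by a factor of only 1.15. Derl2 ranged over 30.3 to 34.9 FPKM in Klebsiella and 31.7 to 37.0 FPKM in Lactobacillus recipients, a log2 difference of -0.05 ± 0.08 (SE).

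Derl3 behaved apart from its relatives, being low in level and uneven between mice. It was at 3.18, 3.70, 4.04 and 10.2 FPKM in Klebsiella recipients, against 7.57, 7.15, 3.19 and 4.44 FPKM in Lactobacillus recipients. Klebsiella mouse 4 and Lactobacillus mice 1 and 2 were high, and the log2 difference was -0.15 ± 0.38 (SE, limma adjusted p = 0.947), or -0.49 without Klebsiella mouse 4. Its promoter (chr10:75893148-75893447, plus strand, RefSeq on GRCm38.p6) holds the same long element as the chaperones, here on the opposite strand and so printed in its reverse form in capitals. Its end farther from the start lies 156 bases before it.
Derl3: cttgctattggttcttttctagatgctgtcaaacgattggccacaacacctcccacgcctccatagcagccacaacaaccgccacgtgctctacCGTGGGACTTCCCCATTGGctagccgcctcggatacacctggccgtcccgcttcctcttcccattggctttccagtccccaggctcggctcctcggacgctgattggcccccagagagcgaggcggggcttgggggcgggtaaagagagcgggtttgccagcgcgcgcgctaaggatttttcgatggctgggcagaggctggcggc

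Plasma cells, which secrete antibody, are known for high Derl3, and the 10 markers of that list differed among themselves over the libraries. Igha, the constant region of IgA and the most abundant gene of the plasma cell list, was at 1013, 1102, 882 and 3932 FPKM in Klebsiella recipients, against 1937, 2329, 1343 and 1263 FPKM in Lactobacillus recipients. Of the 10 plasma cell markers none was at 0 in any library, and 2 of the 9 tested had a log2 difference above 0. Their summed level was 1314 to 5147 FPKM in Klebsiella and 1762 to 3192 FPKM in Lactobacillus recipients. Klebsiella mouse 4 held the highest sum and was also the highest library for Derl3, Hspa5, Herpud1 and Xbp1. By gene, Klebsiella mouse 4 was the highest library for Igha, Jchain, Sdc1, Prdm1, Irf4 and Pou2af1. Sdc1 did not share the course of Igha, its highest library exceeding its lowest, Lactobacillus mouse 4, by a factor of 2.2. For Igha the factor was 4.46, with Klebsiella mouse 3 the lowest. Mzb1 and Tnfrsf17 were highest in Lactobacillus mouse 2, Tent5c in Lactobacillus mouse 3 and Fcrl5 in Lactobacillus mouse 4. Fcrl5 was at its lowest, 0.113 FPKM, in Klebsiella mouse 4, but it rested on 4 to 19 reads and averaged 0.269 FPKM, below the filter. Tent5c was at its highest, 20 FPKM, where Derl3 was at 3.19 FPKM. Its groups did not overlap, with Klebsiella lower, although the nearest mice both round to 15.2 FPKM. Of all tested genes 1.80% were lower without overlap. The log2 difference of Tent5c was -0.55, with a 95% interval of -0.93 to -0.17 and a limma adjusted p of 0.774. The ratio of Derl3 to Jchain was 0.0104 to 0.0196 over the 8 libraries. The part of plasma cells in these results was not tested.

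**Figure D3:**
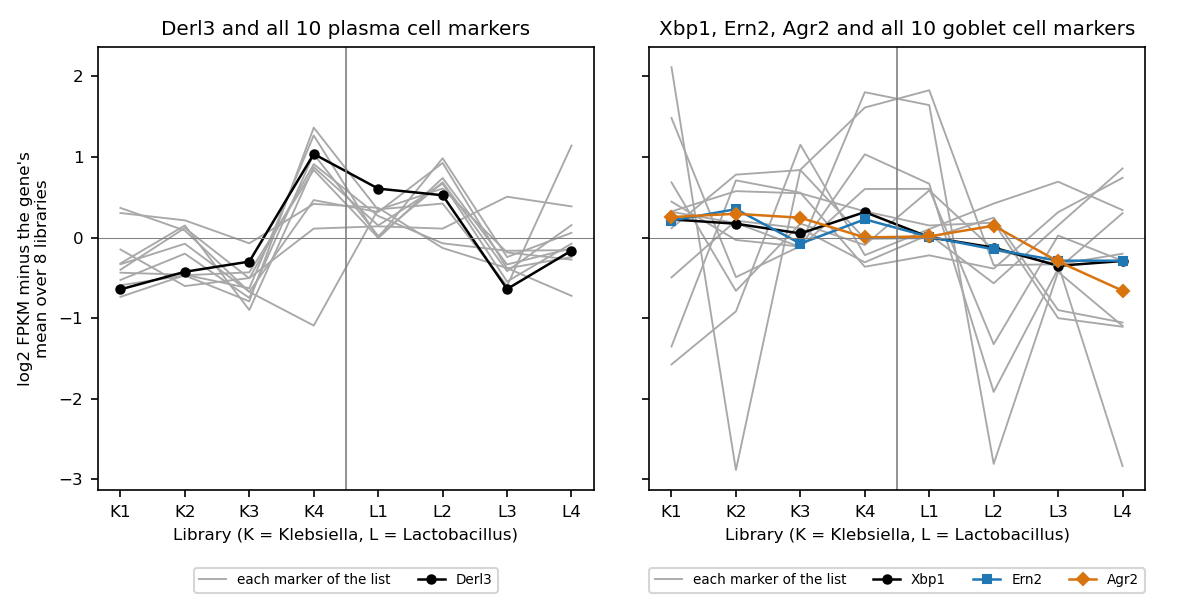
Log2 FPKM of each gene minus its mean over 8 libraries, for K1 to K4 (Klebsiella mice) and L1 to L4 (Lactobacillus mice), with Derl3 in black and the 10 plasma cell markers in grey on the left, and Xbp1, Ern2 and Agr2 with symbols and the 10 goblet cell markers in grey on the right. Derl3 is highest in K4, at 10.2 FPKM, where most but not all grey lines of the plasma cell list are above their mean, and Xbp1 and Ern2 vary little beside the goblet markers.

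The ATF4 arm had the largest single difference and the least even members. Of its 6 genes 5 had a log2 difference above 0, with a median of 0.296, and Asns and Atf4 were at an unadjusted p under 0.05. Atf4, the transcription factor itself, was at 148, 136, 74.9 and 129 FPKM in Klebsiella recipients, against 110, 83.9, 68.1 and 57.7 FPKM in Lactobacillus recipients. Klebsiella mouse 3 lay among the Lactobacillus mice, and the other Klebsiella mice lay above all of them. Atf4 averaged 122 ± 32.3 FPKM in Klebsiella recipients and 79.9 ± 22.8 FPKM in Lactobacillus recipients (SD, n = 4 each). On the log2 scale they were 0.60 ± 0.25 (SE) apart, with a 95% interval of 0.03 to 1.17 and a limma adjusted p of 0.774. With Hoxd13 as a covariate the difference was 0.91. ATF4 protein is set mainly by translation, which these libraries do not measure.

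Asns (asparagine synthetase), a standard ATF4 target, was at 33.2, 25.2, 30.1 and 29.5 FPKM in Klebsiella recipients, against 26.2, 26.9, 18.4 and 14.7 FPKM in Lactobacillus recipients. The groups overlapped by Klebsiella mouse 2, the lowest of its group. The log2 difference was 0.48 ± 0.19 (SE, limma adjusted p = 0.774), and 0.32 without Lactobacillus mouse 4, which had the lowest value. Ddit3 (CHOP), the transcription factor linked to death under lasting ER stress, had a log2 difference near 0. It was at 22.4, 32.8, 24.6 and 24.9 FPKM in Klebsiella recipients, against 27.3, 24.9, 26.4 and 25.6 FPKM in Lactobacillus recipients. The Lactobacillus values lie inside the range of the Klebsiella ones, with Klebsiella mouse 2 the highest and Klebsiella mouse 1 the lowest, and the log2 difference was -0.01 with a 95% interval of -0.28 to 0.26. The ratio of Atf4 to Ddit3 was 6.60, 4.15, 3.04 and 5.18 in Klebsiella recipients, against 4.03, 3.37, 2.58 and 2.25 in Lactobacillus recipients, overlapping through Klebsiella mouse 3 and the first pair of Lactobacillus mice.

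The late and feedback genes of the arm were low. Ppp1r15a (GADD34), which restores translation, was at 8.80, 13.4, 6.98 and 8.56 FPKM in Klebsiella recipients and 7.18, 8.25, 9.49 and 6.06 FPKM in Lactobacillus recipients, and its log2 difference of 0.25 was 0.07 without Klebsiella mouse 2. Trib3, a pseudokinase that curbs ATF4, was at 0.739 to 1.5 FPKM in Klebsiella recipients and 0.414 to 0.921 FPKM in Lactobacillus recipients, resting on 7 to 25 reads per library. Chac1, which breaks down glutathione, was at 0.159 to 1.09 FPKM in Klebsiella recipients and 0.198 to 0.725 FPKM in Lactobacillus recipients, resting on 5 to 31 reads, and its mean of 0.51 FPKM was just over the filter of 0.5. The log2 differences of Trib3 and Chac1 were 0.34 and 0.15, with 95% intervals of -0.18 to 0.87 and -0.59 to 0.89. Chac1 and Herpud1 were the only members with TTGCATCA, a form of the C/EBP-ATF element through which ATF4 acts, in the promoter window, beside 294 of all 32851 promoters (0.895%). The IRE1 branch element TGACGTGG, which ends in the other strand of CCACG and can thus share bases with the long element, was in the window of 0 members and in 222 promoters (0.676%).

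**Figure D4:**
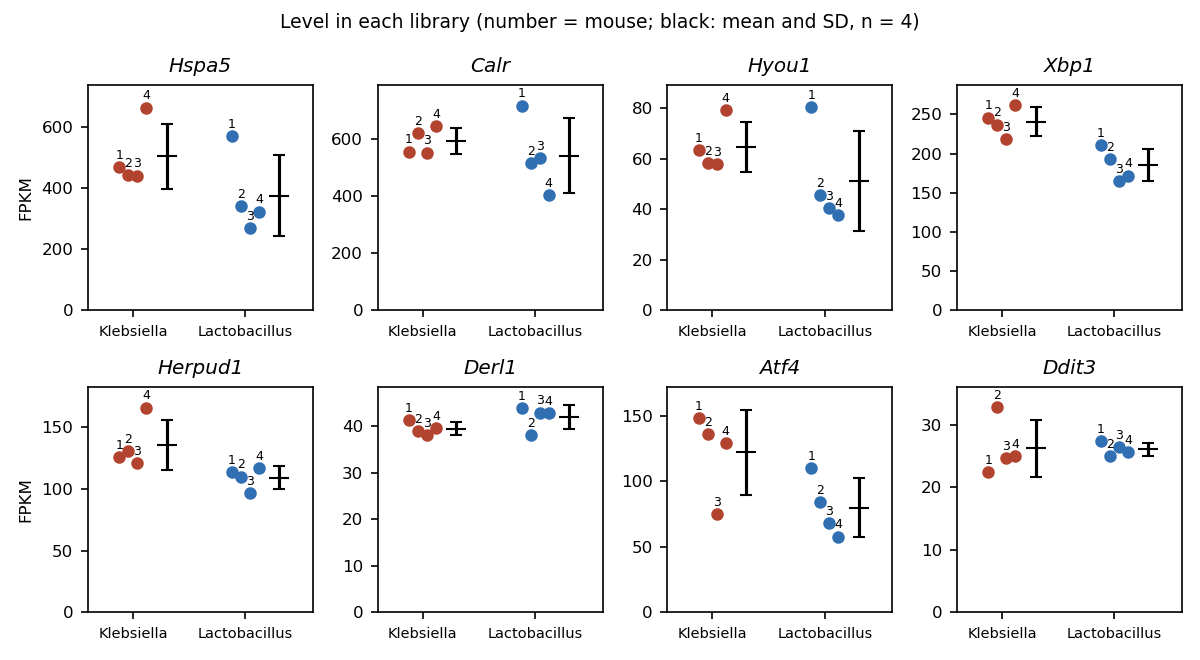
FPKM of 8 ER stress genes in each mouse (coloured points numbered by mouse, Klebsiella left, Lactobacillus right), with the mean and SD of each group of 4 in black and every axis starting at 0. Xbp1 and Herpud1 separate the groups, Hspa5, Calr and Hyou1 overlap through Lactobacillus mouse 1, Atf4 overlaps through Klebsiella mouse 3, and in Derl1 and Ddit3 the group means lie close together.

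Xbp1, the transcription factor downstream of IRE1, had the smallest unadjusted p of the 31 genes. It was at 246, 237, 218 and 262 FPKM in Klebsiella recipients, against 211, 193, 165 and 172 FPKM in Lactobacillus recipients. All Klebsiella mice lay above all Lactobacillus mice, with Klebsiella mouse 3 and Lactobacillus mouse 1 nearest to each other. Xbp1 averaged 241 ± 18.4 FPKM in Klebsiella recipients and 185 ± 20.9 FPKM in Lactobacillus recipients (SD, n = 4 each), which is 1.30-fold on the log2(FPKM + 0.5) scale. The log2 difference was 0.38 ± 0.10 (SE), with a 95% interval of 0.15 to 0.61, an unadjusted p of 0.00472 and a limma adjusted p of 0.774. It ranged over 0.33 to 0.45 in the 20 alternative fits. The table gives 1 value per gene, so spliced and unspliced Xbp1 are not separated.

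The sensors themselves had smaller log2 differences than Xbp1. Eif2ak3 (PERK) was at 24, 27.8, 28.0 and 29.3 FPKM in Klebsiella recipients, against 27.3, 20.9, 22.2 and 21 FPKM in Lactobacillus recipients, with Lactobacillus mouse 1 again among the Klebsiella mice. Its log2 difference was 0.25 ± 0.11 (SE, unadjusted p = 0.0487, limma adjusted p = 0.774). Atf6 ranged over 15.6 to 17.9 FPKM in Klebsiella and 14.7 to 16.8 FPKM in Lactobacillus recipients, and Ern1 (IRE1 alpha) over 28.0 to 34.4 FPKM in Klebsiella and 28.8 to 34.7 FPKM in Lactobacillus recipients. Their log2 differences of 0.12 and 0.03 had 95% intervals of -0.08 to 0.32 and -0.19 to 0.25. These proteins are switched on by cleavage or phosphorylation, neither of which is read from transcript levels.

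Set side by side, the median log2 difference was 0.151 for chaperones, -0.005 for the degradation machinery, 0.296 for the ATF4 arm and 0.187 for the sensors with Xbp1. The gaps between these roles were not tested. The spread of single genes differed as much: the median residual SD was 0.244 for chaperones, 0.157 for degradation, 0.319 for the ATF4 arm and 0.130 for the sensors with Xbp1, beside 0.239 over all tested genes. The library pattern also differed between roles. For the ATF4 arm the centred mean was 0.31, 0.14, -0.05 and 0.21 in Klebsiella mice 1 to 4 and -0.01, -0.04, -0.19 and -0.37 in Lactobacillus mice 1 to 4. Lactobacillus mouse 1 was above the gene's mean in 14 of 14 chaperones and in 4 of 6 genes of the ATF4 arm, whose centred mean also rests on the low counts of Trib3 and Chac1. Across all 8 libraries the highest exceeded the lowest 6.86-fold in Chac1, 3.62-fold in Trib3, 3.20-fold in Derl3 and 2.57-fold in Atf4, but 1.15-fold in Derl1 and 1.21-fold in Atf6.

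A wider list of 95 other genes of the same pathway was read from the same fit. Of these 94 were tested, Fgf21 being below the filter, and 62 lay above 0 and 32 below, with a median log2 difference of 0.070. None was called by limma. At an unadjusted p under 0.05, 8 were higher (2.55% of all tested genes) and 1 was lower (3.52%), and 4 were higher without overlap (1.19%). By role, the median was 0.148 for 25 tested genes of the ATF4 arm, 0.099 for 15 sensors and regulators, 0.064 for 18 of translocation and secretory traffic, 0.053 for 19 of folding and glycoprotein processing, and -0.033 for 17 of degradation.

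The lowest unadjusted p-values of the wider list belonged to 6 genes, 1 of them lower. Stc2, a secreted glycoprotein induced by PERK and ATF4, was at 23.5, 24.4, 23.8 and 22.5 FPKM in Klebsiella recipients, against 16.5, 17.4, 8.59 and 7.86 FPKM in Lactobacillus recipients. Its Klebsiella values were even and its Lactobacillus values formed a higher and a lower pair, all below Klebsiella, 0.96 ± 0.25 (SE) apart on the log2 scale at a limma adjusted p of 0.774. Ddit4 (REDD1), an inhibitor of mTORC1 that many stresses induce, was at 40.7, 48.3, 62.3 and 48.7 FPKM in Klebsiella recipients, against 50.5, 81.6, 121 and 85.1 FPKM in Lactobacillus recipients. It differed by -0.70 ± 0.24 (SE) on the log2 scale, with a limma adjusted p of 0.774. So within the ATF4 arm, Stc2 and Ddit4 lay on opposite sides of 0. Ppp1r15b, the constant partner of the phosphatase that Ppp1r15a also serves, differed by 0.44, Sec24d, a coat protein of ER export vesicles, by 0.33, and Sec61a1, the channel into the ER, by 0.31.

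Ern2 (IRE1 beta), the form of IRE1 found in gut goblet cells, was at 50.8, 56.1, 41.7 and 51.4 FPKM in Klebsiella recipients, against 44.2, 39.7, 36.0 and 36.0 FPKM in Lactobacillus recipients. It differed by 0.35 ± 0.11 (SE) on the log2 scale, with a limma adjusted p of 0.774. Klebsiella mouse 3 lay below Lactobacillus mouse 1, the only overlap. Agr2, a disulfide isomerase needed for mucin, was at 1581, 1627, 1572 and 1327 FPKM in Klebsiella recipients, against 1339, 1468, 1079 and 839 FPKM in Lactobacillus recipients. Every Agr2 value was above every value of the 31 genes. Of the goblet cell markers, 7 of 10 lay above 0, none was at 0 in any library, and their sum was 16203 to 18812 FPKM in Klebsiella and 9160 to 18694 FPKM in Lactobacillus recipients. Clca1, their most abundant gene, was at 4971, 3575, 3378 and 7474 FPKM in Klebsiella recipients, against 5799, 967, 2791 and 4501 FPKM in Lactobacillus recipients. The log2 differences of the list ran both ways, with Tff3 at -0.24, Zg16 at -0.22 and Atoh1 at -0.75 below 0. Ang4 was the highest at 1.34, with a wide 95% interval of -0.68 to 3.36. Muc2 was at 0.86, with a 95% interval of 0.09 to 1.62 and a limma adjusted p of 0.774, and its groups overlapped. Spdef was the only one of the 10 whose groups did not overlap, where 1.19% of all tested genes were higher without overlap. Spdef was at 77.4, 92.2, 90.5 and 77.5 FPKM in Klebsiella recipients, against 68.6, 70.3, 30.9 and 28.7 FPKM in Lactobacillus recipients. These markers were named after their values were seen, and the part of goblet cells in the differences of Xbp1, Ern2 and Agr2 was not tested.

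Other cell types were read from their marker lists. Smooth muscle markers summed to 962 to 3666 FPKM in Klebsiella and 1409 to 2384 FPKM in Lactobacillus recipients, with the lowest sum in Klebsiella mouse 4. All 8 had a log2 difference above 0, 0 of 8 were at 0 in any library, and Actg2, the most abundant, was at 220 to 1095 and 347 to 638 FPKM in those groups. Epithelial markers summed to 5067 to 6220 FPKM in Klebsiella and 4515 to 5745 FPKM in Lactobacillus recipients, with 8 of 10 above 0. Krt18 differed by 0.62 (95% interval 0.14 to 1.11) and Cdx2 by 0.73 (0.04 to 1.42). Both overlapped between groups, at a limma adjusted p of 0.774. Krt20 at -0.044 and Cdh1 at -0.052 lay below 0, and the part of epithelial cells was not tested. Pancreatic acinar markers summed to 186 to 1550 FPKM in Klebsiella and 281 to 807 FPKM in Lactobacillus recipients, and 7 of 12 were at 0 in at least 1 library, while Cela1, the most abundant, was at 185 to 378 and 275 to 450 FPKM in those groups. Without the 2 libraries highest in Ctrb1 the chaperone median was 0.11, the log2 difference of Xbp1 was 0.33, and Xbp1 was the only member at an unadjusted p under 0.05, where 0.765% of all tested genes were higher at that p. Cela1 did not share the course of Ctrb1 over the libraries, and the part of acinar cells was not tested.

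Reads of 11 members could be shared with another gene, since their exons overlap it in the GENCODE annotation, and in 7 of them the other gene codes for protein. These pairs are Pdia3 with Catsper2, Pdia6 with Atp6v1c2, Manf with Dcaf1 and Rbm15b, Derl2 with Mis12, Syvn1 with Mrpl49, Ddit3 with Mars, and Ppp1r15a with Tulp2. No source used here says whether counting used the strand, so levels of these 7 are uncertain to that extent. Rbm15b lies on the same strand as Manf, so use of the strand would not separate that pair. Hsp90b1 and Pdia4 also share bases with genes on the same strand that do not code for protein.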

How the data were processed

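The authors deposited FPKM values per gene and library, with read counts before and after filtering and the percent of bases at Q30 per library. STAR 2.5.1b, DESeq2 1.10.1, HTSeq 0.6.0 and CASAVA are named, with no role, per the submitters' processing notes. The strand setting and genome build were not given in the sources used here. Symbols came from a gene name table (49326 of 49585 identifiers). Genes averaging 0.5 FPKM or more were tested as log2(FPKM + 0.5) with limma 3.58.1 (trend, two-sided, Benjamini-Hochberg over 16865 genes), Klebsiella minus Lactobacillus, n = 4 mice each, with no covariate. The fit was tested on simulated data. Whole reads were recovered from the FPKM for all but 1 of the 26963 genes detected in 2 or more libraries (relative tolerance 1e-09), and voom was run on them as an alternative. The 31 genes, their roles, the wider list and the marker lists were chosen with earlier results of these data known. All 31 were described. Of the wider list, the 6 genes with the smallest unadjusted p, Ern2 among them, were named, and Agr2 whatever its value, and of each marker list the gene with the highest mean, with Hoxb6, Hoxd13 and Ctrb1. Other markers were named after their values were seen. Intervals are 95%. Mouse numbers are in the labels. Each p-value sets the difference between groups against the spread between these mice, an estimate for which limma also borrows from the other genes.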

Additional observations from a re-analysis of the deposited data

Results flagged for a closer look

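Each group of 4 mice was checked for 1 value far from the other 3 in the 31 genes, 62 groups in all, of which chance would mark about 1 in 20, and 3 were marked. Hspa5 was at 664 FPKM in Klebsiella mouse 4, where the other Klebsiella mice had 441 to 469 FPKM. Derl3 was at 10.2 FPKM in the same mouse, where the others had 3.18 to 4.04 FPKM. Pdia4 was at 115 FPKM in Lactobacillus mouse 1, where the other Lactobacillus mice had 80.4 to 83.9 FPKM. Klebsiella mouse 4 is the library with the highest plasma cell sum (5147 FPKM, of which Igha 3932) and the highest goblet cell sum (18812 FPKM, of which Clca1 7474). That goblet cell sum was 18694 FPKM in Lactobacillus mouse 1. By gene, Klebsiella mouse 4 was the highest library for Clca1 and Ang4 only, and its Muc2, at 2381 FPKM, was the lowest of its group. It also had the lowest smooth muscle sum (962 FPKM) and the lowest share of bases at Q30 (90.65%). The part of any of these in its values was not tested.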

How the results depend on the processing

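No gene, member or other, was called at an adjusted p under 0.05 by limma in any of the 20 alternatives, and 589 of 618 member values kept the direction reported; the 29 that did not belong to 9 members. Genes at an unadjusted p under 0.05 numbered 1024, and 1825 with array weights, 1693 with Hoxd13 as a covariate, 438 without the 2 libraries highest in Ctrb1, and 566 to 2004 with each library left out. Members at an unadjusted p under 0.05 numbered 6 (2.55% of all genes higher at that p), and 2 with Hoxd13 (3.69%). They numbered 1 without the Ctrb1 pair (0.765%) and 1 to 13 with each library left out (1.22% to 5.21%). Members higher without overlap numbered 2 (1.19% of all tested genes), and 2 to 12 with each library left out (1.81% to 4.59%). Other pathway genes at an unadjusted p under 0.05 numbered 9 (6.07% of all genes in either direction). They numbered 2 without the Ctrb1 pair (2.6%) and 4 to 17 with each library left out (3.36% to 11.9%). The ATF4 arm median of 0.296 was 0.521 with Hoxd13. Rescaling to a constant total, rescaling by median-of-ratios factors and array weights turned the log2 difference of Edem1 (0.022, 0.020 and 0.023) and of Ddit3 (0.020, 0.018 and 0.096), and array weights that of Chac1 (-0.034). Without the 2 libraries highest in Hoxb6, Sel1l was at -0.002, Derl3 at 0.055 and Ern1 at -0.013, and Ern1 was at -0.056 with Hoxd13. With each library left out, log2 differences ran over -0.066 to 0.161 in Pdia4, -0.057 to 0.205 in Pdia6, -0.094 to 0.384 in Sdf2l1, -0.065 to 0.030 in Edem1, -0.490 to 0.023 in Derl3, -0.119 to 0.061 in Ddit3, -0.064 to 0.360 in Chac1 and -0.004 to 0.095 in Ern1. The cause was not tested. A mean FPKM of at least 2 left Trib3 and Chac1 out. Same-numbered mice had deviations correlated at 0.189, -0.100, -0.059 and -0.159, and differently numbered mice at -0.312 to 0.189. Such correlations cannot show whether same-numbered mice were paired, and the labels give only the number. With the number as a replicate block 4 members were at an unadjusted p under 0.05 by limma (2.83% of all genes higher), and the log2 difference of Xbp1 was 0.381.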
